A study of Homo sapiens with 12 samples.

Results

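The genes described here are the general splicing factors of the tables: SR proteins (symbols starting with SRSF and a digit), heterogeneous nuclear ribonucleoproteins (hnRNPs, HNRNP), small nuclear ribonucleoprotein (snRNP) proteins (SNRP), the SF3A and SF3B subunits and the U2AF subunits. They were chosen by symbol alone, and 58 of the 15563 genes listed in the tables of both clones matched. The HNRNP family held 23 of them, the SNRP family 12, the SRSF family 11, SF3A and SF3B 9 and U2AF 3. RefSeq classes 56 as protein-coding, and the other two are the processed pseudogene HNRNPA3P1 and the read-through gene HNRNPUL2-BSCL2, which RefSeq classes as a non-coding RNA and GENCODE as protein-coding. A further pseudogene, HNRNPA1P33, was listed in clone 2 only, at a mean of 1.31. The lowest mean listed for any gene was 2.52 in clone 1 and 1.13 in clone 2. Its absence from clone 1 is therefore not read as a difference between the clones.

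The study measured RNA by sequencing in RCH-ACV, an established human B-cell precursor leukemia line with a pre-B cell receptor. It held 12 libraries in 4 groups of 3. The dasatinib-resistant cells of clone 1 and of clone 2 were kept in dasatinib, a kinase inhibitor, at up to 1 µM. The dasatinib-sensitive cells of clone 1 and of clone 2 were kept in 0.1% DMSO, the vehicle. The resistant sublines were selected from the same line by months of growth in rising drug, each is a single subline, and the 3 libraries of a group were RNA isolations of that subline at separate time points.

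The only value of a gene used here is the authors' mean normalized count over the 6 libraries of a clone, resistant and sensitive cells together. It carries no error and no number of replicates, and it does not separate resistant from sensitive cells. No statement on how dasatinib resistance changed a splicing factor is therefore made. What the means do show is how strongly each factor was expressed in these cells, how the factors stood to one another, and how the tables of both clones differed. The means summed to 19108037 in clone 1 and 24561485 in clone 2, and the median gene stood at 406 and 442. The depth of single libraries is unknown.

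Splicing removes introns from a new transcript. The U1 snRNP binds the start of the intron, the U2AF pair reads its end, and the U2 snRNP, which carries SF3A and SF3B, settles on the branch point. The U1 and U2 snRNPs are each built around a ring of Sm proteins (most SNRP genes). SR proteins bind exons and favour their use, whereas hnRNPs coat the transcript and often oppose it, so the balance of both groups helps to set which exons are kept. SF3B1, U2AF1 and SRSF2 are known as recurrently mutated in myeloid neoplasms.

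Several of these genes have close relatives in the genome. A pair of coding sequences is shown as an example of how far such relatives can differ. Each line is the first 120 bases of the coding sequence, from the GENCODE annotation of GRCh38, 5′ to 3′, with capitals where the pair differs. SNRPN, the Sm protein gene of chromosome 15 known for its imprinting, differed from SNRPB on chromosome 20 at 14 of 120 bases.
SNRPN: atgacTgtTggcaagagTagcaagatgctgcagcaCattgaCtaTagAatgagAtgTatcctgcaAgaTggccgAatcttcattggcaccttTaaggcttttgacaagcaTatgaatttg
SNRPB: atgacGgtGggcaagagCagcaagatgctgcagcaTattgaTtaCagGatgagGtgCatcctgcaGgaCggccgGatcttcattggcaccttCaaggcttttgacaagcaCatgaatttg
The differences are spread along the stretch, and the transcripts of SNRPN and SNRPB taken here had no 50-base stretch in common. Over the same length HNRNPH2 differed from HNRNPH1 at 23 bases and U2AF1L4 from U2AF1 at 31, and HNRNPUL2-BSCL2 did not differ from HNRNPUL2.

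The splicing factors took up 2.70% of all mean normalized counts in clone 1 and 2.71% in clone 2. The hnRNPs held most of this, with 1.80% in clone 1 and 1.82% in clone 2. The SR proteins held 0.407% and 0.408%, SF3A and SF3B 0.217% and 0.222%, the snRNP proteins 0.197% and 0.193%, and U2AF 0.0694% and 0.0692%. The mean of a factor ranged over 4.37 to 57356 in clone 1 and over 5.24 to 74624 in clone 2, with medians of 5955 and 7680. In both clones 54 of 58 had a mean of at least 1000. The exceptions were HNRNPLL, U2AF1L4, SRSF12 and the pseudogene HNRNPA3P1.

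Levels of different genes are compared per length. The mean was divided by the length of the gene's representative transcript and scaled, as TPM values are, to the same total over all genes with a length in each table, and such a value is called the level per length. The plain means quoted with it count reads, which also grow with a gene's length. The median gene had a level per length of 16.3 in clone 1, over 15164 genes, and 13.4 in clone 2, over 16341 genes. Because different genes are listed for each clone, neither this median nor the highest 10% compares the clones. Of the 58 splicing factors, 50 in clone 1 and 52 in clone 2 were among the highest 10% of the genes of their table. With the coding length in place of the transcript length these counts were 48 and 49.

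**Figure D1:**
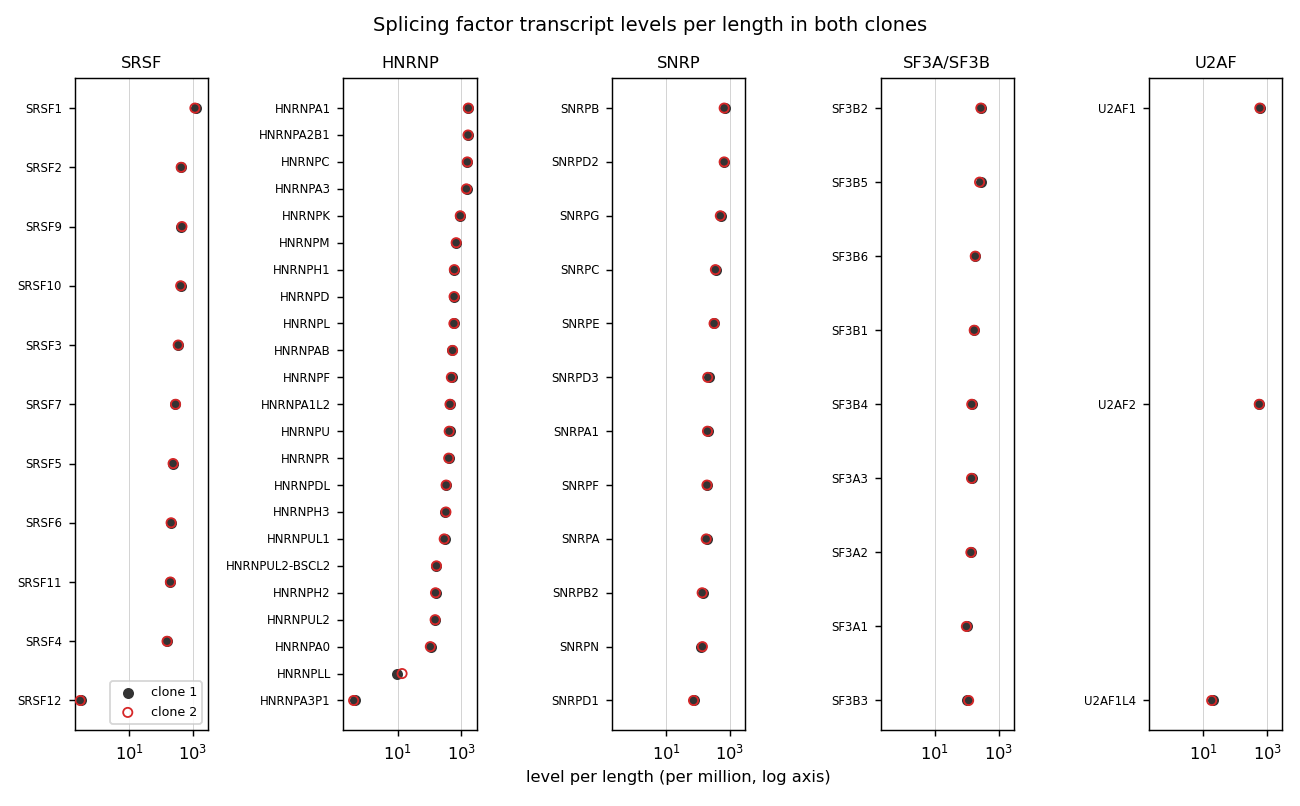
Level per length (scaled as TPM, log axis) of the 58 splicing factors, by family, in clone 1 (filled) and clone 2 (open); each point is the authors' mean over 6 libraries and has no error bar. The points of both clones lie on each other for nearly all genes, from HNRNPA1 at 1628 and 1635 down to SRSF12 at 0.318 and 0.294, and HNRNPLL is the visible exception.

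Among the hnRNPs, HNRNPA1, which binds exonic and intronic silencers, had a mean of 57356 in clone 1 and 74624 in clone 2, a level per length of 1628 and 1635. HNRNPA2B1, a related RNA-binding protein that also sorts transcripts and microRNAs, had means of 47453 and 61937, a level per length of 1588 and 1599. HNRNPC, which binds uridine tracts and keeps cryptic exons out, had a level per length of 1473 in clone 1 and 1519 in clone 2. These genes and HNRNPA3, at 1461 and 1425, were the 4 highest of all 58 in both clones per transcript length. HNRNPK, a binder of cytidine-rich RNA, came next among the hnRNPs at 903 and 914. Per coding length HNRNPA1 and HNRNPA2B1 stayed highest, and SRSF3 came before HNRNPC and HNRNPA3. The places of HNRNPC and HNRNPA3 also rested on the transcript taken. It has 1714 bases for HNRNPC and 2067 for HNRNPA3, whereas all annotated exons cover 6272 and 6033. Per length of all annotated exons HNRNPC and HNRNPA3 came after HNRNPK in both clones.

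The low end of the hnRNPs was far below this. HNRNPLL, the hnRNP that in lymphocytes is known for switching CD45 exons, had a mean of 330 in clone 1 and 635 in clone 2, a level per length of 9.26 and 13.7. That was below the median gene in clone 1 and close to it in clone 2, though the medians of the clones cover different genes. Its paralog HNRNPL stood at 582 and 577 per length. HNRNPA3P1 was listed at means of 4.37 and 5.24. HNRNPUL2-BSCL2, which joins HNRNPUL2 and the neighbouring BSCL2 on chromosome 11, was listed at means of 5458 and 7272, and per length it stood at 160 and 164, near HNRNPUL2 itself at 146 and 149.

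SRSF1, the founding SR protein, led its family with a mean of 15638 in clone 1 and 19316 in clone 2, a level per length of 1209 and 1153. SRSF3, the smallest SR protein, had means of 12421 and 16167, and SRSF2, which acts on exonic enhancers, had 10774 and 13684. Per transcript length SRSF3 stood at 344 and 346 and SRSF2 at 437 and 428. Per coding length SRSF3 led the family at 1378 and 1381, above SRSF1 at 1147 and 1091 and SRSF2 at 887 and 867, and the transcript of SRSF3 taken here has 4222 bases and its coding part 492. SRSF4 had means of 3141 and 4082. SRSF12, the SR protein with the lowest mean, was listed at 9.79 in clone 1 and 11.7 in clone 2.

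Among the snRNP proteins, SNRPB, the Sm protein B of the ring, had the highest mean, 6773 in clone 1 and 8336 in clone 2. SNRPD2 followed at 5093 and 6507 and SNRPD3 at 3207 and 3887. SNRPA1, a protein of the U2 particle, had the lowest mean of the family at 1817 in clone 1 and 2285 in clone 2, and SNRPN had 2071 and 2923. Per length the lowest of the family was SNRPD1, at 73.9 and 71.5, above HNRNPLL and SRSF12 in both clones.

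SF3B1, the large scaffold subunit that holds the branch-point helix, had the highest mean of its family at 9571 in clone 1 and 12386 in clone 2. SF3B3 had means of 8207 and 12342, and SF3B2 of 7099 and 8880. The small subunits SF3B5, with 1615 and 1936, and SF3B6, which contacts the branch point, with 1157 and 1575, had the lowest means. Of the U2AF genes, U2AF2, the large subunit that binds the pyrimidine tract, had means of 8161 and 10560, U2AF1, the small subunit that reads the AG at the intron end, 4949 and 6244, and the U2AF1-like gene U2AF1L4 150 and 182.

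The order of the 58 by level per length was nearly the same in both clones (Spearman's rho 0.999 over 58 genes, given as a description because both clones use the same gene lengths and come from the same cell line). 9 of the 10 highest were shared. No replicate error exists that would say which neighbours in this order differ.

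The subunits of one particle are needed in fixed proportions in the protein complex, so their transcript levels were set side by side. U2AF1 and U2AF2 were close, at 602 and 562 per length in clone 1 and 586 and 562 in clone 2, a ratio of 1.07 and 1.04. SF3A1, SF3A2 and SF3A3 ranged over 1.47-fold in clone 1 and 1.45-fold in clone 2, and the 6 SF3B subunits over 2.90-fold and 2.41-fold, with SF3B3 lowest and SF3B2 highest in both clones per transcript length. The U1 proteins SNRPC and SNRPA differed by 1.97-fold and 1.94-fold per transcript length. Per coding length they differed by 1.82-fold and 1.79-fold, and per length of all annotated exons by 1.38-fold and 1.36-fold.

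The 7 Sm ring genes spanned 9.30-fold in clone 1 and 9.13-fold in clone 2, with SNRPD1 lowest at 73.9 and 71.5 and SNRPB highest at 687 and 652. This range rested on the length used. The transcript taken for SNRPD1 has 4909 bases and its coding part 357, and per coding length the Sm genes spanned 1.70-fold in clone 1 and 1.79-fold in clone 2, with SNRPD3 lowest and SNRPD2 highest. The order of U2AF1 and U2AF2 turned with the length of all annotated exons, and that of SNRPA1 and SNRPB2, both of the U2 particle, turned with the coding length. Per coding length SF3B4 was the lowest and SF3B5 the highest SF3B subunit in both clones, and SF3A2 took the place of SF3A1 as the lowest SF3A subunit. Per exonic length SF3B5 was the highest SF3B subunit, with SF3B3 still lowest.

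**Figure D2:**
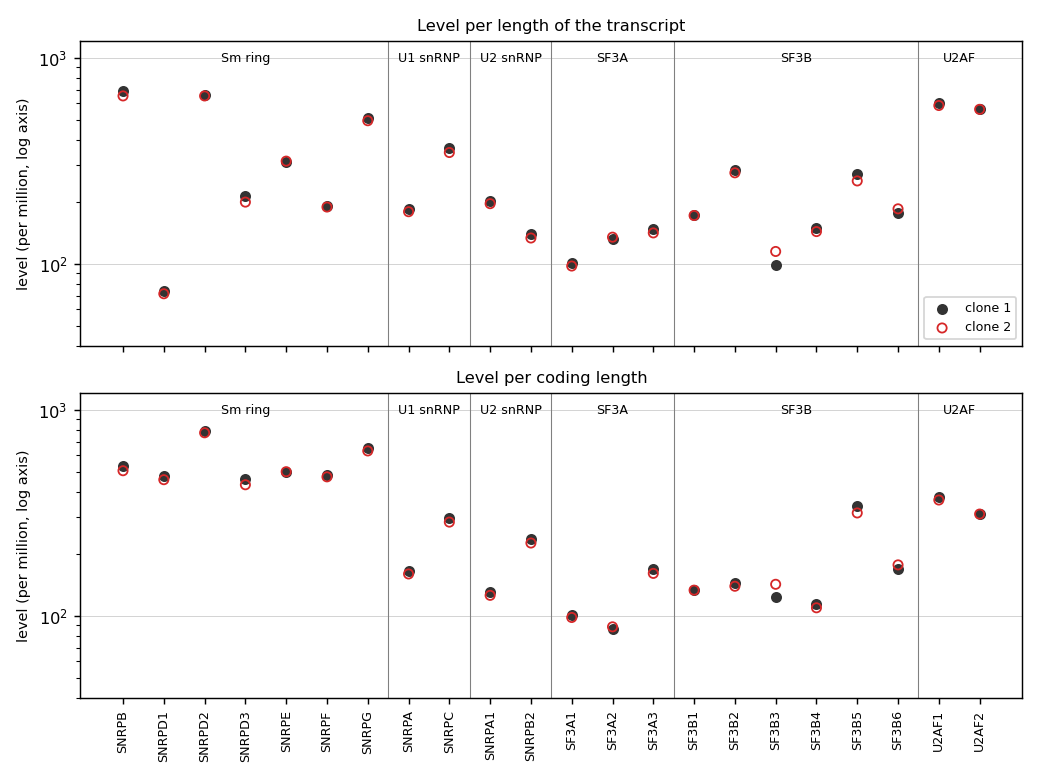
Level per length (scaled as TPM, log axis) of the subunits, matched by symbol, of 6 particles in clone 1 (filled) and clone 2 (open). Levels were divided by transcript length in the upper panel and by coding length in the lower one. There are no error bars since each point is a single mean of the authors. SNRPD1 stands at 73.9 and 71.5 above, far under the other Sm genes, and joins them below.

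How far each level could hold reads of another gene was measured as the share of the 50-base windows of its transcript that also occur in a transcript of any other annotated gene. 18 of the 58 factors shared at least 10% of their windows, 23 shared some but fewer, and 17 shared none. HNRNPUL2-BSCL2 shared 98.8%, with HNRNPUL2 and BSCL2. U2AF1 shared 96.8%, all of it with U2AF1L5, a gene of the GRCh38 annotation, and SRSF1 shared 85.1% with the annotated gene AC015813.2. The windows are of GRCh38, whereas the build of the data was hg19. Whether the sharing genes, U2AF1L5 among them, are present in hg19 was not checked, so a share need not hold for these reads.

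HNRNPA1L2 shared 58.5%, HNRNPA3 49.9%, HNRNPUL2 45.2%, SNRPN 44.2%, U2AF1L4 42.9% and SNRPA1 41.5%. HNRNPA1, the highest of all 58 per length, shared 28.8% of its windows with 56 other genes, and HNRNPC 27.6% with 9. These shares depend on the transcript taken: with the longest coding transcript they were 58.5% for SRSF1, 17.5% for HNRNPA3, 10.9% for HNRNPC and 9.58% for SNRPG, against 22.9% for SNRPG with the transcript used here. HNRNPA2B1, HNRNPM, SRSF2, SRSF7, SF3B2 and U2AF2 were among those that shared none. How reads that fit several genes were counted is not given in the sources used here, so the levels of the sharing genes are uncertain. HNRNPA1L2, at a mean of 5198 in clone 1 and 6617 in clone 2, shared 47.6% of its windows with HNRNPA1, and reads there could come from either gene.

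**Figure D3:**
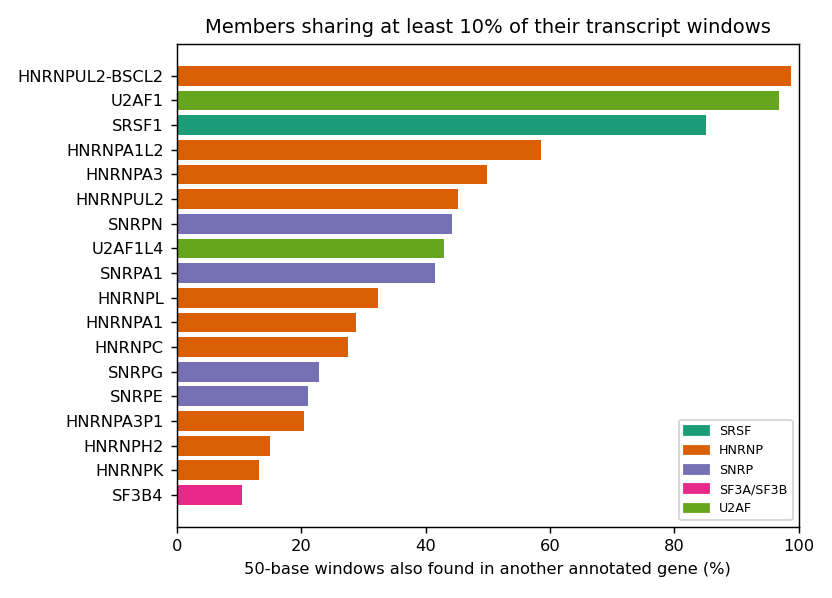
Share of the 50-base windows of a splicing factor's transcript that also occur in another annotated gene (percent), for the 18 factors with at least 10%, colored by family. HNRNPUL2-BSCL2, U2AF1 and SRSF1 lie at 98.8%, 96.8% and 85.1%, and SF3B4 is the lowest shown at 10.5%.

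The tables of the clones were then compared. They were normalized separately, and the labels give the libraries of each clone a set letter of their own. Over the shared genes, the median of the gene-wise ratios of clone 2 over clone 1 was 1.29. Ratios of clone 1 over clone 2 were therefore scaled to put the median ratio at a log2 ratio of 0. A ratio mixes the clones, the sets and the resistant and sensitive libraries of each, which cannot be told apart, and it has no replicate error and no test. None of the 58 splicing factors was past 1.5-fold in either direction. Of all 15563 shared genes 8.44% were, but that share falls with the level: it was 2.75% of the genes with means of at least 50 in both clones and 0.543% of the 4418 genes with means of at least 1000, the class of 54 of the 58. Against the last of these, 0 of 54 is not a result about the splicing factors.

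The median log2 ratio of the 58 was 0.01, the middle of the distribution (quartiles) ran from −0.02 to 0.04, and 32 lay above 0 and 26 below. The 54 with means of at least 1000 had quartiles of −0.02 and 0.04, against −0.05 and 0.08 for all 4418 such genes. A log2 ratio beyond 0.1, a limit chosen after levels were seen, was found for 3 of these 54 (5.56%), against 33.2% of the 4418. The median of the means was 6223 for these splicing factors in clone 1 and 8285 in clone 2, against 1970 and 2522 for the 4418 genes, and the part of this in the spread was not tested. By family the median log2 ratio was −0.01 for SRSF, 0.00 for HNRNP, 0.04 for SNRP, 0.04 for SF3A and SF3B and 0.03 for U2AF.

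HNRNPLL was the factor farthest from 0. Its mean was 330 in clone 1 and 635 in clone 2, a log2 ratio of −0.58 after scaling, or 1.49-fold lower in clone 1 and just inside the limit of 1.5. SF3B3 followed at means of 8207 in clone 1 and 12342 in clone 2 and a log2 ratio of −0.22. The other SF3B subunits lay between −0.08 (SF3B6) and 0.11 (SF3B5), all above SF3B3. SNRPN had a log2 ratio of −0.13, whereas SNRPB, its close relative, had 0.07. The other two beyond 0.1 were SRSF12, at 0.11, and HNRNPA3P1, at 0.10, both at means under 12.

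**Figure D4:**
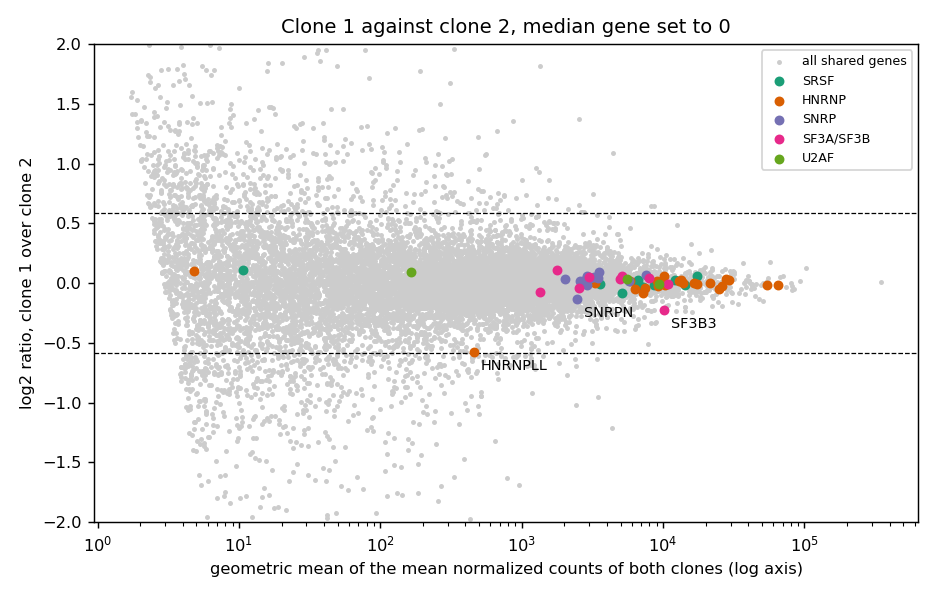
Log2 ratio of clone 1 over clone 2, with the median ratio set to 0, against the geometric mean of both clones' mean normalized counts (log axis). All shared genes are grey and the splicing factors are colored by family. Dashed lines mark 1.5-fold and 52 genes lie outside the axis. The splicing factors form a narrow band around 0 at high means, and HNRNPLL at −0.58 and SF3B3 at −0.22 lie below it.

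Promoter sequences from RefSeq (GRCh38.p14) matched 53 of the 58 genes, through 75 promoters. The 250 bases before each start were searched on both strands for 8 motifs, and a gene counted if any of its promoters held the letters. CCGGAAG, the letters bound by ETS factors, stood in 19 of 53 (35.8%), against 17.3% of the genes of both tables and 10.2% of all genes. They stood in 6 of 8 SF3A and SF3B genes, 7 of 11 SNRP genes, 1 of 3 U2AF genes, 2 of 10 SRSF genes and 3 of 21 HNRNP genes. For this and the other motifs the backgrounds hold genes of any level, whereas most splicing factors had high means. A background of like level was not made, so no share is read as particular to splicing factors.

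CCAAT, the box bound by NF-Y, stood in 24 of 53 (45.3%), against 40.6% and 37.0%. By family it stood in 17 of 21 HNRNP genes, of which HNRNPUL2 and HNRNPUL2-BSCL2 share the same stretch, in 5 of 11 SNRP, 1 of 10 SRSF, 1 of 8 SF3A and SF3B, and 0 of 3 U2AF genes. These counts describe the windows, and no test of a difference between families was run.

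Of the other motifs, GGGCGG (the GC box) stood in 35 of 53, against 71.3% and 46.2%, GCGCATG (the NRF1 core) in 15.1%, against 7.40% and 4.59%, CACGTG (the E box) in 13.2%, against 10.9% and 7.73%, TATAAA (the TATA box) in 13.2%, against 8.39% and 13.0%, AAGATGG (YY1) in 3.77%, against 4.72% and 4.49%, and TGACGTCA (the cAMP response element) in 0 of 53, against 3.17% and 2.03%. In each case the first share is that of the 53 splicing factors, the next that of the genes of both tables and the last that of all genes.

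Windows of 60 bases around the ETS letters are shown for genes of the U2 machinery and the Sm ring, since the SF3A and SF3B and the SNRP families had the highest shares. All are written 5′ to 3′ on the strand of the gene with the letters in capitals, for SF3B2 (chr11:66052284-66052343, plus strand), SF3B6 (chr2:24076453-24076512, minus strand), SNRPB (chr20:2470798-2470857, minus strand) and U2AF2 (chr19:55654975-55655034, plus strand).
SF3B2: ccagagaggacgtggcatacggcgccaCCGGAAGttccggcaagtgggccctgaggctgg
SF3B6: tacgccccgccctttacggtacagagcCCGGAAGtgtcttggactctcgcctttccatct
SNRPB: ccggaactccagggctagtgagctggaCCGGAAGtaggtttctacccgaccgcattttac
U2AF2: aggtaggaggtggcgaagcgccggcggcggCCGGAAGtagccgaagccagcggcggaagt
The letters shown lay 53 bases before the start in SF3B2, 159 in SF3B6, 41 in SNRPB and 30 in U2AF2. SF3B2 and SF3B6 each held the letters again on the other strand, 14 bases before the start in SF3B2 and 128 in SF3B6.

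Related splicing genes were taken from 6 lists. All 35 core spliceosome proteins, 10 LSM ring proteins, 14 proteins of snRNP assembly, 10 kinases and phosphatases of SR proteins and 15 SR-related and exon junction proteins were listed in both clones, and none was past 1.5-fold. Their median log2 ratios of clone 1 over clone 2 were 0.04, 0.00, 0.03, −0.08 and 0.05 in this order. PRPF8, the core of the catalytic center, had means of 15288 in clone 1 and 18467 in clone 2. Per transcript length the median of the core spliceosome was 78.7 in clone 1 and 77.7 in clone 2, against 294 and 287 for the 58 splicing factors. The SR-related and exon junction proteins came nearest to the 58, at 170 and 166, and the proteins of snRNP assembly were lowest, at 42.8 and 40.7. Coding length was not used for these lists.

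Of 34 symbols of other and tissue-restricted regulators 27 were listed in both clones. 2 of those not found, HNRPDL and HNRPLL, are older symbols of HNRNPDL and HNRNPLL, which are listed and are among the 58. PTBP1, which represses exons at pyrimidine tracts, had means of 10776 in clone 1 and 13357 in clone 2. The neuronal regulators NOVA2, with means of 37.5 in clone 1 and 21.3 in clone 2, and RBFOX3, with 4.99 and 10.4, were the genes of this list past 1.5-fold, at low means.

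The labelled cell type was checked by its markers. All 10 markers of pre-B leukemia cells were listed, with means from 1023 to 10839 in clone 1 and from 1653 to 14912 in clone 2. Of 5 T cell markers none was listed in clone 1 and CD8A alone in clone 2, at 2.34. Of 5 myeloid markers 4 were listed, with CSF1R at 615 and 768 and the rest at or under 17.1. Of 5 erythroid and megakaryocytic markers ITGA2B was listed, at 7.71 and 15.8. Of 5 non-hematopoietic markers COL1A1 was listed, at 145 and 214, and KRT8 in clone 2 only, at 1.16. The means of CD8A and KRT8 lie under the lowest mean listed in clone 1, 2.52.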

How the data were processed

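Per the labels, mRNA was sequenced with a kit that keeps the strand. The build was hg19, and DESeq2, FastQC 0.10.1, Picard 1.107 and BWA in versions 0.7.7-r441 and 0.6.2-r126 are among the tools that the submitters list, without roles. For the counter, the annotation and reads across introns, details were not given in the sources used here.

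The deposited signal is the authors' mean normalized count of a gene (counts divided by size factors), taken over 6 libraries for each clone. The other columns of each table hold the authors' own comparison of resistant with sensitive cells (log2 fold change, its error, test statistic and p-values) and a regulation call, and were not used. No per-library value, SD, test or counting interval could therefore be given.

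Genes with a symbol used more than once or turned into a date were left out. Ratios of clone 1 over clone 2 were scaled to the median gene-wise ratio (Python 3.11.15, pandas 2.3.3, numpy 2.4.6). The scaling was run on simulated counts with a single known scale. Such a run checks the calculation and cannot show whether the scaling suits these data. Lengths came from GENCODE release 29 and covered 97.3% of clone 1's genes and 97.1% of clone 2's. Since its build differs from hg19, no coordinates were joined. Alternatives were another scaling, none, a minimum mean of 50, a limit of 2-fold, coding genes only, and coding or exonic length.

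Genes were named by rule: in each family the 3 highest and 2 lowest by mean, every gene past 1.5-fold, pseudogenes and read-through genes, and genes listed in 1 clone only. Other genes named were chosen after their values were seen. The members and lists were chosen with earlier results of these data known. The particles, the motifs, the class of means of at least 1000 and the log2 limit of 0.1 were chosen after levels were seen. The representative transcript replaced the longest coding one, and motifs were counted per gene and not per promoter, after a first look at both. 1 sequence comparison is not reported here.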

Additional observations from a re-analysis of the deposited data

How the results depend on the processing

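The alternatives concern the scaling between tables, the filter, the fold limit, the members and the length. The values as deposited leave the 1.29-fold shift of the median ratio in place. With them the median log2 ratio of the 58 was −0.36 and 2 were past 1.5-fold, HNRNPLL at −0.94 and SF3B3 at −0.59. The shift is built into that alternative, and all 24 genes named by the rule moved with it. Scaled by the sums of the tables, the 24 stayed within 0.1 (log2) of their values, and with means of at least 50 so did the 22 that passed. No factor was past 1.5-fold under these, past 2-fold, or among coding genes alone, but HNRNPLL lies so near the limit that its side has no weight. Levels per length rest on the annotated transcript: 7 of the 10 highest in each clone were also among the 10 highest by coding length and by exonic length, and the range within the Sm ring shrank with coding length. 2 choices were changed after a first look at the values. On the longest coding transcript, used at first, SRSF1 shared 58.5% of its windows, HNRNPA3 17.5%, HNRNPC 10.9%, SNRPG 9.58% and U2AF1 93.8%, and 17 factors shared at least 10%. Counted per promoter, as at first, the ETS letters stood in 28.0% of 75 promoters of splicing factors, against 12.8% of those of the genes of both tables, and CCAAT in 34.7%, against 32.3%. No paired analysis was possible because the deposited means pool all replicates of a clone, and no replicate could be left out for the same reason. Depth per library is unknown, so the means under 12 (SRSF12, HNRNPA3P1) carry a counting error that cannot be given.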
